A study of Mus musculus with 3 samples.

Results

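The 58 genes described here lie on the proximal part of mouse chromosome 17, within about 25 Mb of Dll1, the gene deleted in one of the mouse lines of the study. They were chosen by their position and with measured differences of these same arrays known, between Dll1-/- cells and the other arrays, so their values are given as a description and with no test. They are 58 of the 20887 genes that could be matched to probes. Gene expression was measured in CD4+ T cells 2 days after stimulation, with 1 Agilent one-colour array each for Dll1-/- cells, Rbpj-/- cells and wild-type cells. The donors were female C57BL/6 mice of 8 weeks in all 3 groups, per the labels, and every array received Cy3-labelled cRNA amplified from 20 ng of RNA. The design of the alleles, any Cre driver, the number of animals behind an array and the way the cells were stimulated are not stated in the labels. With 1 array per group there is no replicate check of any difference below, and no p-value is given.

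Dll1 is a membrane ligand that activates Notch receptors on a neighbouring cell. The activated receptor releases its intracellular domain, which joins the DNA-binding protein Rbpj in the nucleus and switches on Notch target genes. The genes treated here share a neighbourhood with Dll1, not a pathway: when an allele made in cells of one mouse strain is bred onto another, chromosome around the allele travels with it, and sequence differences there can alter a transcript's amount or the binding of an array probe. The labels give 1 strain for all 3 groups, and strain DNA was not measured. The question for the array values is therefore which of these neighbours had another level in Dll1-/- cells, and whether Rbpj-/- cells showed the same.

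A level below is the log2 processed signal less the 75th percentile of its own array, so that 0 is the signal that 75% of the array's probes stay under, and a difference is one level minus another. A gene counts as measured in a comparison where one of its probes was well above background on both arrays, and as apart where the arrays differed at least 1.5-fold. Levels of different genes are not compared, since probes bind with different strength. Between 46.6% and 50.1% of the probes were well above background on an array. Among 432 probes printed repeatedly, the median SD between spots was 0.08, 0.11 and 0.11 log2 on the Dll1-/-, Rbpj-/- and wild-type arrays, with 95th percentiles of 0.58, 0.67 and 0.56. These values cover spot noise within an array, not differences between mice. All 7 T helper markers, among them Cd3e and Lck, were well above background on all 3 arrays. The Dll1 probe gave signals of 3.60, 4.06 and 4.51 in Dll1-/-, Rbpj-/- and wild-type cells none of them well above background, so the deletion could not be checked from it. Rbpj had levels of 1.32 in Dll1-/- cells, 0.53 in Rbpj-/- cells and 1.04 in wild-type cells. Whether its probes lie inside the deleted sequence is not known, so this checks nothing about the label. In cells measured in bulk, fewer cells of a type and less RNA per cell cannot be told apart.

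Probes matched 55 of the 58 genes, with 80 probes in all, and none was matched for Tcte3, Slc26a8 and Rab44. Another 10 genes were not well above background on any array: Dact2, Smoc2, Thbs2, Wdr27, Grm4, Scube3, Tead3, Tulp1, Mapk13 and Mdga1. Their probe signals ran between 2.72 and 9.70 in Dll1-/- cells, between 3.17 and 12.8 in Rbpj-/- cells and between 3.85 and 12.8 in wild-type cells. That left 45 genes above background on at least 1 array and 43 on all 3. Spdef and Pi16 passed on the Dll1-/- array alone. Of the 45, 30 rest on 1 probe.

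Promoter sequences are shown for the 4 genes that were at least 2-fold apart in Dll1-/- cells from both other arrays, so that a reader can see what the genome reference holds upstream of them. Each runs 5′ to 3′ from 250 bases before to 50 bases after the gene's start, as given by RefSeq on GRCm38.p6. Capitals mark the letters TGGGAA or TTCCCA, the core of the motif that Rbpj binds, and GGGCGG or CCGCCC, a GC box, searched on both strands.

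Dnase1l2, chr17:24443052-24443351, minus strand: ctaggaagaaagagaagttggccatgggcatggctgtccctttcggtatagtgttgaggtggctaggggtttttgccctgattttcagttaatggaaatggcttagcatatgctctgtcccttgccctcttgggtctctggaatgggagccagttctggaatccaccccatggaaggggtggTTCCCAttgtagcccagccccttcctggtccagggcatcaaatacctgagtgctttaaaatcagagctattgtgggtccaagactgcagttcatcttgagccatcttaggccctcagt
Fgd2, chr17:29360664-29360963, plus strand: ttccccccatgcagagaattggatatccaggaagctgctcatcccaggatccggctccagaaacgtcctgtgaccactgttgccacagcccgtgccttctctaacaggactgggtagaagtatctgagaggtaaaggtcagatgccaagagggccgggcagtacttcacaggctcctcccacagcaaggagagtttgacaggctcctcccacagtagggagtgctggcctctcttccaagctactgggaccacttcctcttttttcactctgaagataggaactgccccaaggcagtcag
Glo1, chr17:30612610-30612909, minus strand: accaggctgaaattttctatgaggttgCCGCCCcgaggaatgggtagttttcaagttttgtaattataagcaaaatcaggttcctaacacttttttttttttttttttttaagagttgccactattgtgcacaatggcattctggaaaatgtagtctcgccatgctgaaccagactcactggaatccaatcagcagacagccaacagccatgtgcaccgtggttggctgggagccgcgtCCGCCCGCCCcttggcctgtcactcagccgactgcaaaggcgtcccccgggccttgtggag
Dnah8, chr17:30626686-30626985, plus strand: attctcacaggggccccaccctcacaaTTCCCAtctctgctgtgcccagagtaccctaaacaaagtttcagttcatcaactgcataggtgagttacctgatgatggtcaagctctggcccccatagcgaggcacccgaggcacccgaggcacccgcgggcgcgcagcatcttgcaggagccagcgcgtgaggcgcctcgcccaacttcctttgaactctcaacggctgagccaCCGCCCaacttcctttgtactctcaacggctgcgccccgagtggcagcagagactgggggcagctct

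The Dnase1l2 window held 1 Rbpj core and no GC box, with 1 CG pair. The Fgd2 window held no match to either motif and had 4 CG pairs. In the Glo1 window there were 3 GC box matches, of which 2 overlap, and 11 CG pairs. The Dnah8 window held 1 Rbpj core, 1 GC box and 16 CG pairs. Among 32851 mouse promoter windows of 300 bases, 25.6% held the Rbpj core and 35.7% a GC box, and the median number of CG pairs was 7. The matches describe letters in a window and say nothing of binding. The reference is that of C57BL/6, and any other strain's letters are not shown by it.

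Most genes around Dll1 had close to the same level on the 3 arrays. In Dll1-/- cells against wild type, 4 of 43 measured genes were at least 1.5-fold higher (Fgd2, Cpne5, Glo1 and Dnah8), where 1.95% of all 11819 measured genes were, and 1 was lower (Dnase1l2), where 2.30% of all were. Cpne5 counts among them only through a probe that was above background on the Dll1-/- array alone. With probes well above background on all arrays, 4 genes were apart in either direction, without Cpne5. At 2-fold the count was 4 of 43, against 1.16% of all genes. These contrasts took part in choosing the genes, so nothing is read from the counts. The median difference was -0.01 over the 43 genes and -0.03 over all genes.

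In Rbpj-/- cells against wild type, 0 of 43 genes were at least 1.5-fold higher, against 4.86% of 11593 measured genes, and 2 were lower (Tsc2 and Fgd2), against 6.97%. Only Tsc2 reached 2-fold, against 3.56% of all genes. The medians were -0.04 over the 43 genes and -0.07 over all genes. In Dll1-/- against Rbpj-/- cells, 4 genes were at least 1.5-fold higher, against 6.35% of 11804 genes, and 2 were lower (Dnase1l2 and Mapk8ip3), against 5.25%. Of the Mapk8ip3 probes only the dimmer was apart. The higher genes were again Fgd2, Cpne5 (with the same limit), Glo1 and Dnah8, and 4 of 43 genes were at least 2-fold apart, against 4.18% of all. These comparisons share arrays and are not independent of each other.

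Counted as a level above both other arrays or below both, the Dll1-/- array stood apart for 5 of 43 genes, 4 of them above (0.961% of 11554 genes measured on all arrays) and 1 below (0.580% of them), together 11.6% of the 43 against 1.54% of all genes. Without the dim Cpne5 probe it stood apart for 4. Counted in the same way, the Rbpj-/- array stood apart for 1 of 43 (Fgd2), against 7.00% of all genes, and the wild-type array for 0, against 1.57%. The plot of levels by gene shows this as tight groups of 3 symbols with few exceptions.

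**Figure D1:**
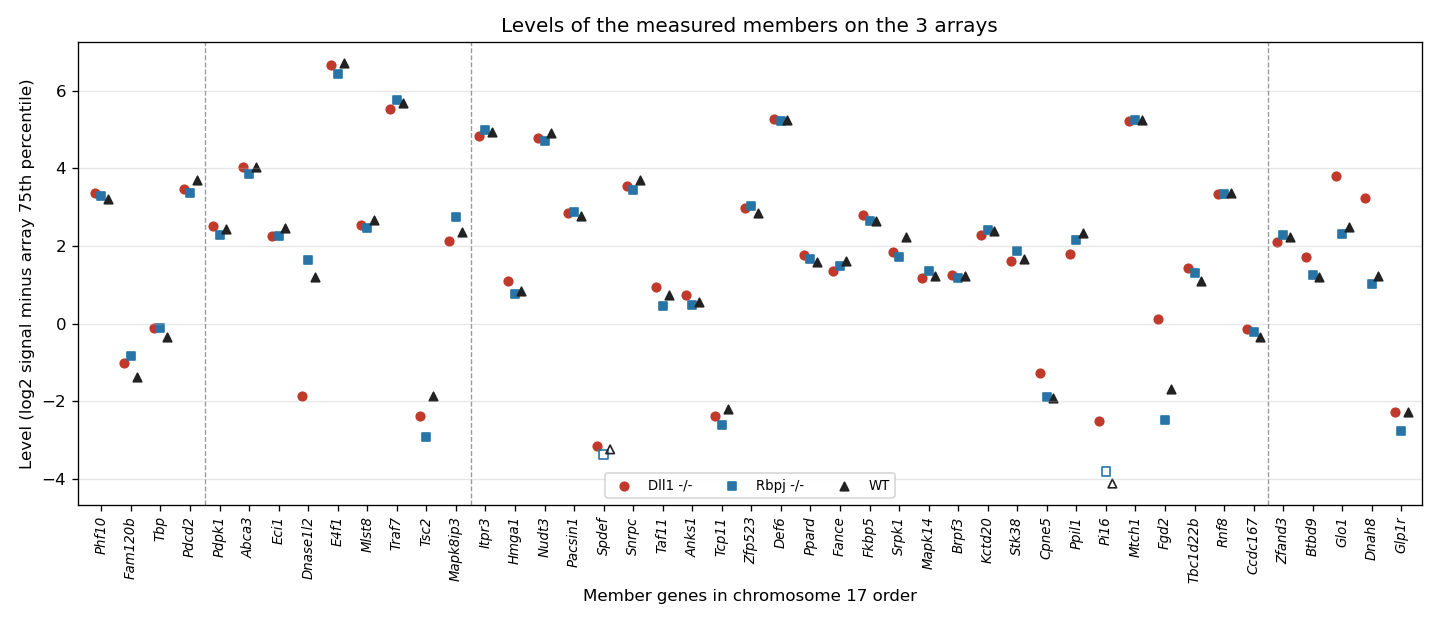
Level (log2 signal minus the 75th percentile of the array) of the 45 genes above background, in chromosome order, with 1 symbol per array and dashed lines between stretches of the chromosome. Open symbols are not well above background. Dnase1l2 sits low, and Fgd2, Glo1 and Dnah8 high, on the Dll1-/- array.

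Glo1 and Dnah8 are next to each other at the far end of the set and both were higher in Dll1-/- cells. Glo1 encodes glyoxalase 1, which detoxifies methylglyoxal, a by-product of glycolysis. Its signal was 2158 in Dll1-/- cells, 699 in Rbpj-/- cells and 1000 in wild-type cells, which gave levels of 3.79, 2.31 and 2.49. The difference was 1.30 log2 (2.46-fold) against wild type and 1.49 (2.81-fold) against Rbpj-/- cells, whereas Rbpj-/- cells were lower than wild type by only 0.19. Glo1 has 1 probe on this array.

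Dnah8 encodes an axonemal dynein heavy chain, a motor protein best known from sperm tails. It had levels of 3.24 in Dll1-/- cells, 1.01 in Rbpj-/- cells and 1.22 in wild-type cells, a difference of 2.02 (4.06-fold) against wild type and 2.23 (4.71-fold) against Rbpj-/- cells. Its 3 probes lie in different rows of the array and all pointed the same way. They gave 1.97, 1.90 and 2.20 against wild type, and 2.29, 2.50 and 1.91 against Rbpj-/- cells. The brightest of them had a signal of 9510 in Dll1-/- cells, 1768 in Rbpj-/- cells and 2773 in wild-type cells.

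Between Glo1 and Dnah8 in the order lies 1700097N02Rik, a clone-named gene outside the set. Its levels were 6.05, 4.50 and 5.10 in Dll1-/-, Rbpj-/- and wild-type cells, so that it too was higher in Dll1-/- cells, by 0.95 against wild type and by 1.55 against Rbpj-/- cells. Here the Rbpj-/- array was also lower than wild type, by 1.52-fold.

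Btbd9, which encodes a BTB domain protein and precedes Glo1, had levels of 1.72 in Dll1-/- cells, 1.26 in Rbpj-/- cells and 1.19 in wild-type cells, just short of the 1.5-fold limit at 1.44-fold against wild type. Its probes disagreed. The probe designed on the transcript NM_172618 had levels of 2.41, 1.16 and 0.58 on the Dll1-/-, Rbpj-/- and wild-type arrays, a difference of 1.83 against wild type and 1.25 against Rbpj-/- cells. Both probes designed on NM_027060 stayed near 0, with differences of -0.10 and -0.15 against wild type and 0.00 and 0.12 against Rbpj-/- cells. The mean over 3 probes therefore hides 1 that was 3.55-fold higher and 2 that were not apart.

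On either side of the stretch, the genes given here did not stand apart in Dll1-/- cells from both other arrays. Zfand3, a zinc finger protein gene before Btbd9, had levels of 2.09, 2.29 and 2.23 in Dll1-/-, Rbpj-/- and wild-type cells. Gm6402, a predicted gene between Btbd9 and Glo1 outside the set, had -0.89, -1.15 and -1.66, higher in both knockouts than in wild type. On the other side Glp1r, the receptor of glucagon-like peptide 1, had levels of -2.28, -2.77 and -2.27 and a second, dim probe. It is the outermost gene of the set, and the next measured gene, Abcg1, a cholesterol exporter gene outside it, had 2.85, 2.70 and 2.75. As background, inbred mouse strains are known to differ in the copy number of a segment that holds Glo1. Copy number was not measured on these arrays, and its part in the levels was not tested.

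**Figure D2:**
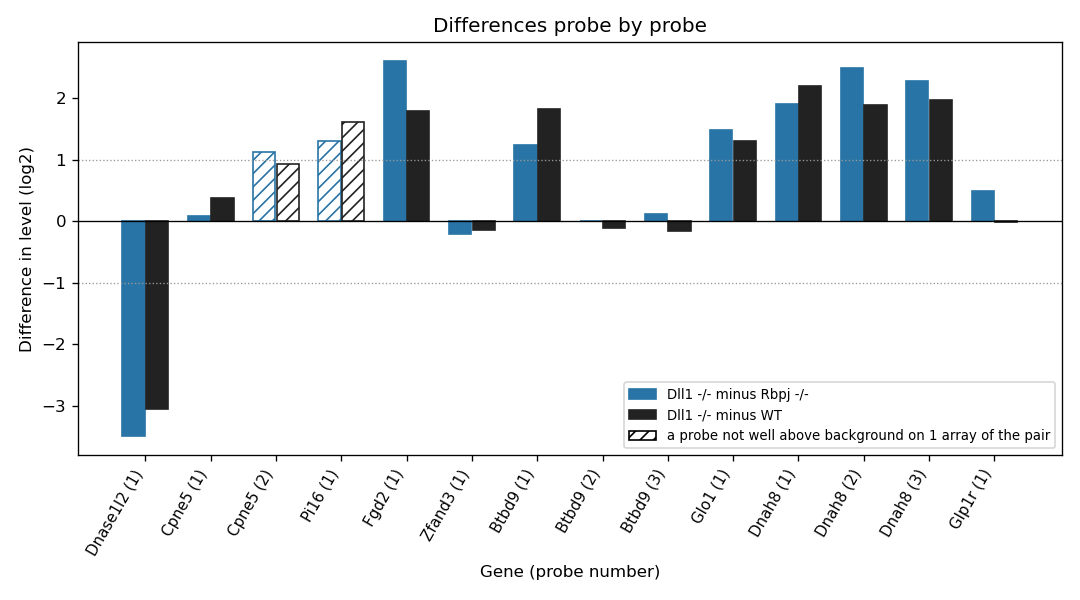
Difference in level (log2) of single probes, Dll1-/- minus Rbpj-/- (blue) and Dll1-/- minus wild type (black), with dotted lines at a log2 difference of 1. The 3 Dnah8 probes and 1 of 3 Btbd9 probes are above it, and Dnase1l2 is far below. Hatched bars involve an array on which the probe was not well above background.

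Dnase1l2, a gene for a DNase I-like nuclease, showed the widest gap of the set and the opposite direction. Its signal was 43.0 in Dll1-/- cells, 441 in Rbpj-/- cells and 405 in wild-type cells, with levels of -1.85, 1.64 and 1.19. That is 8.25-fold lower than wild type and 11.3-fold lower than in Rbpj-/- cells, or -3.04 and -3.49 in log2. After normexp background correction with quantile normalization the differences were -1.82 and -2.23. Over all 11819 genes measured in Dll1-/- and wild-type cells, no difference below 0 was larger than that of Dnase1l2 at this scaling and filter. It rests on 1 probe at 1 spot, and the probe's sequence was not used here, so whether a base difference lies under it was not tested.

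The genes on either side of Dnase1l2 did not share its drop. Eci1, a mitochondrial enzyme gene of fatty acid oxidation, had levels of 2.26 in Dll1-/- cells, 2.25 in Rbpj-/- cells and 2.46 in wild-type cells. E4f1, a transcription factor and ubiquitin ligase gene, had 6.67, 6.42 and 6.70, as the mean of 2 probes that pointed opposite ways. One of these gave 0.32 against wild type and 0.97 against Rbpj-/- cells, and the other -0.38 and -0.47. Abca3, a lipid transporter gene, differed by -0.02 between Dll1-/- and wild-type cells.

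Around Dnase1l2 lie several regulators of mTOR signalling, the nutrient-sensing kinase pathway that T cells use on activation. Tsc2 encodes a brake on the pathway, Mlst8 a subunit of the mTOR complexes and Pdpk1 a kinase that activates Akt. Tsc2 had levels of -2.39 in Dll1-/- cells, -2.92 in Rbpj-/- cells and -1.88 in wild-type cells, lower in Rbpj-/- cells by 1.04 against wild type and lower in Dll1-/- cells by 0.51. Its signals, 29.8, 18.7 and 48.3, were close to the lowest that passed as well above background, 13.6, 15.8 and 19.2 on the same arrays. Mlst8 (2.54, 2.48 and 2.68) and Pdpk1 (2.50, 2.29 and 2.45) were not apart between any pair of arrays. Mapk8ip3, which encodes a scaffold of the JNK kinase cascade, had 2.13 in Dll1-/- cells, 2.74 in Rbpj-/- cells and 2.35 in wild-type cells. It was lower by 0.61 in Dll1-/- than in Rbpj-/- cells, and neither was apart from wild type. Its brighter probe gave -0.39 in that comparison, short of 1.5-fold, and its dimmer probe -0.84.

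Fgd2 was higher in Dll1-/- cells than on both other arrays. It encodes an exchange factor for the small GTPase Cdc42 and is known from antigen-presenting cells such as B cells and macrophages. Its signal was 168 in Dll1-/- cells, 25.1 in Rbpj-/- cells and 55.4 in wild-type cells, at levels of 0.11, -2.50 and -1.68. It was 3.46-fold higher than wild type in Dll1-/- cells and 6.09-fold higher than in Rbpj-/- cells, and the Rbpj-/- level was lower than wild type by 0.81. After normexp with quantile normalization the excess was 1.06 over wild type and 1.43 over Rbpj-/- cells. At the main scaling all 3 arrays were at least 1.5-fold apart from each other, on 1 probe. The Rbpj-/- signal was close to the lowest that passed as well above background on that array, 15.8. With normexp and quantile normalization 0 of 43 genes of the set, Fgd2 included, were 1.5-fold apart between Rbpj-/- and wild-type cells.

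Markers of cells that express Fgd2 did not all move with it. The B cell markers did not share 1 pattern over the 3 arrays. In Dll1-/- cells against wild type the difference was 0.00 for Cd79b, 0.01 for Ms4a1, -0.04 for Cd79a and 0.53 for Pax5. Cd79b had levels of 3.41 in Dll1-/- cells, 2.88 in Rbpj-/- cells and 3.41 in wild-type cells, and Ms4a1 had 2.50, 1.75 and 2.48. Cd79a was dimmer, at -3.17, -2.04 and -3.13, and not well above background in wild-type cells. Its level was higher in Rbpj-/- cells instead. Pax5 was well above background in Dll1-/- cells alone, at -3.28, where its wild-type level was -3.81. Macrophage and monocyte markers summed to a log2 level of 2.49 in Dll1-/- cells, 2.76 in Rbpj-/- cells and 2.60 in wild-type cells, with Adgre1 and Cd14 not well above background on any array. Dendritic cell markers summed to 9.22, 9.26 and 9.07, nearly all of it from Siglech, and Itgax and Flt3 were not well above background on any array. NK cell markers summed to 1.31, 1.51 and 1.06, with Ncr1 dim on all arrays. CD8 T cell markers summed to 0.27, -0.32 and 0.30. Each sum adds linear levels and is set largely by the brightest probes of its group. Near-equal sums therefore cannot show that a cell type was equally present on the arrays. Among the markers, Tyrobp, a signalling adaptor of NK and myeloid cells, had a level of -0.74 in Dll1-/- cells, -2.08 in Rbpj-/- cells and -1.84 in wild-type cells. The part of other cell types in the Fgd2 level was not tested.

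Mtch1, Tbc1d22b and Pim1, close to Fgd2, were not apart between any pair of arrays. Pi16, which comes before Mtch1 in the set, was higher in Dll1-/- cells at a dim signal, as given below. Mtch1, a mitochondrial outer membrane protein gene, had 5.23 in Dll1-/- cells, 5.25 in Rbpj-/- cells and 5.24 in wild-type cells. Tbc1d22b, a gene for a Rab GTPase-activating protein, had 1.42, 1.31 and 1.09. Pim1, a kinase gene outside the set that follows Fgd2 in the order, had 2.92, 3.02 and 2.83.

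Cpne5 and Pi16 were weaker cases. Cpne5, a copine gene for a calcium-dependent membrane-binding protein, has 2 probes that entered its mean. The one well above background on all arrays had levels of 0.26 in Dll1-/- cells, 0.16 in Rbpj-/- cells and -0.12 in wild-type cells, 0.38 above wild type and 0.10 above Rbpj-/- cells. The other passed only in Dll1-/- cells, where it was at least 1.32-fold above wild type and at least 1.27-fold above Rbpj-/- cells, so that neither probe by itself shows a 1.5-fold difference. Pi16, which encodes a secreted peptidase inhibitor, had a signal of 27.3 in Dll1-/- cells, 10.1 in Rbpj-/- cells and 10.2 in wild-type cells, and was not well above background on the Rbpj-/- and wild-type arrays. It was at least 1.62-fold above wild type and at least 1.57-fold above Rbpj-/- cells. Ppil1, a spliceosomal peptidyl-prolyl isomerase gene, followed Cpne5 in the set with levels of 1.80, 2.16 and 2.32, lower in Dll1-/- cells than in wild type by 0.52.

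Of the set's genes closest to Dll1, the 4 that were measured were not apart on any array. The Dll1-/- array stood apart for 1.54% of all genes, so nothing is read from so few. Dact2, Smoc2, Thbs2, Wdr27 and Tcte3, also near Dll1, were not measured. Phf10, a subunit gene of a chromatin remodelling complex, had levels of 3.36 in Dll1-/- cells, 3.29 in Rbpj-/- cells and 3.22 in wild-type cells. Tbp, which encodes the TATA-binding protein, had -0.10, -0.10 and -0.35, as the mean of 2 probes. One of them was printed 10 times, with an SD between spots of 0.19, 0.25 and 0.24 log2. Pdcd2, a gene needed for making the small ribosomal subunit, had 3.48, 3.35 and 3.70. Fam120b, a coactivator of PPAR-gamma, had -1.03, -0.84 and -1.37, higher in Rbpj-/- than in wild-type cells by 0.53 and in Dll1-/- cells by 0.35. Over these 4 genes the Dll1-/- minus wild-type differences ran from -0.22 to 0.35. Between Phf10 and Fam120b lie 9030025P20Rik and Gm3448, a clone-named and a predicted gene outside the set that did stand apart. 9030025P20Rik had levels of 2.61 in Dll1-/- cells, 0.88 in Rbpj-/- cells and 1.95 in wild-type cells, and Gm3448 had 1.22, -0.19 and 0.58. Both were at least 1.5-fold higher than wild type in Dll1-/- cells and at least 1.5-fold lower in Rbpj-/- cells.

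Between Itpr3 and Mdga1, 25 genes were measured on all arrays, and their Dll1-/- minus wild-type differences had a median of 0.03. Itpr3, a calcium channel gene of the endoplasmic reticulum, was printed 10 times and had levels of 4.83, 5.0 and 4.95 with SDs of 0.03, 0.05 and 0.06 between spots. Its difference of -0.12 between Dll1-/- and wild-type cells stayed far from 1.5-fold. The SDs between spots do not cover scaling or differences between samples. Spike-in scaling alone moved the median of all genes in this comparison by -0.17. Def6, an exchange factor gene of T cell receptor signalling, had 5.28, 5.23 and 5.25. Hmga1, an architectural chromatin protein gene, had 1.1, 0.75 and 0.84 over 3 probes, and the dimmest of them alone reached 0.77 against wild type. Fkbp5, a co-chaperone gene induced by glucocorticoids, had 2.80, 2.64 and 2.65, and Srpk1, a kinase gene for splicing factors, had 1.85, 1.72 and 2.23. The remaining measured genes here (Pacsin1, Anks1, Tcp11, Zfp523, Brpf3, Kctd20, Stk38 and Ccdc167) and Traf7 near Dnase1l2 were not apart between any pair of arrays.

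The genes can also be listed by what their proteins do. Of 8 measured genes of kinases and MAPK signalling, 0 were at least 1.5-fold apart between Dll1-/- and wild-type cells, where 4.26% of all genes were, and their differences ran from -0.51 to 0.05. Mapk14, the p38-alpha kinase of stress signalling, had levels of 1.18 in Dll1-/- cells, 1.35 in Rbpj-/- cells and 1.24 in wild-type cells. All 8 measured genes of transcription and chromatin were within -0.03 and 0.26 of wild type, among them Taf11, a subunit of the general factor TFIID (0.93, 0.46 and 0.73), and Ppard, a nuclear receptor for fatty acids (1.77, 1.67 and 1.60). Of 4 genes of RNA and DNA maintenance, Snrpc, Fance, Ppil1 and Rnf8, 0 were apart, with differences from -0.52 to -0.03. Of 3 measured regulators of small GTPases, Fgd2, Def6 and Tbc1d22b, Fgd2 was apart. The metabolism group held the opposite cases of Glo1 and Dnase1l2, beside Eci1 and Nudt3 (4.78, 4.72 and 4.91), a diphosphoinositol polyphosphate phosphohydrolase gene.

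Genes of proximal chromosome 17 outside the set were examined in the same way. In the Dll1-/- array, 16 of 355 stood apart from both others (4.51%), 7 above and 9 below. Beyond the proximal part of the chromosome 3 of 220 did (1.36%), and over all other chromosomes 1.41%, with a range from 0.22% on chromosome 13 to 3.35% on chromosome 18. Rbpj-/- cells stood apart for 9.30% of these 355 genes, against 6.97% on other chromosomes, with a range from 4.05% to 9.62%. Wild-type cells stood apart for 2.25% against 1.55%, with a range from 0.79% to 2.48%. All shares were thus above those of the other chromosomes together, but only that of Dll1-/- cells lay outside the range of single chromosomes. The count of 16 became 6 after normexp with quantile normalization (1.69%, against 0.49% on other chromosomes), 9 with spike-in scaling and 9 of 211 genes with spots in rows 193 to 384 alone. No test of these shares was made.

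**Figure D3:**
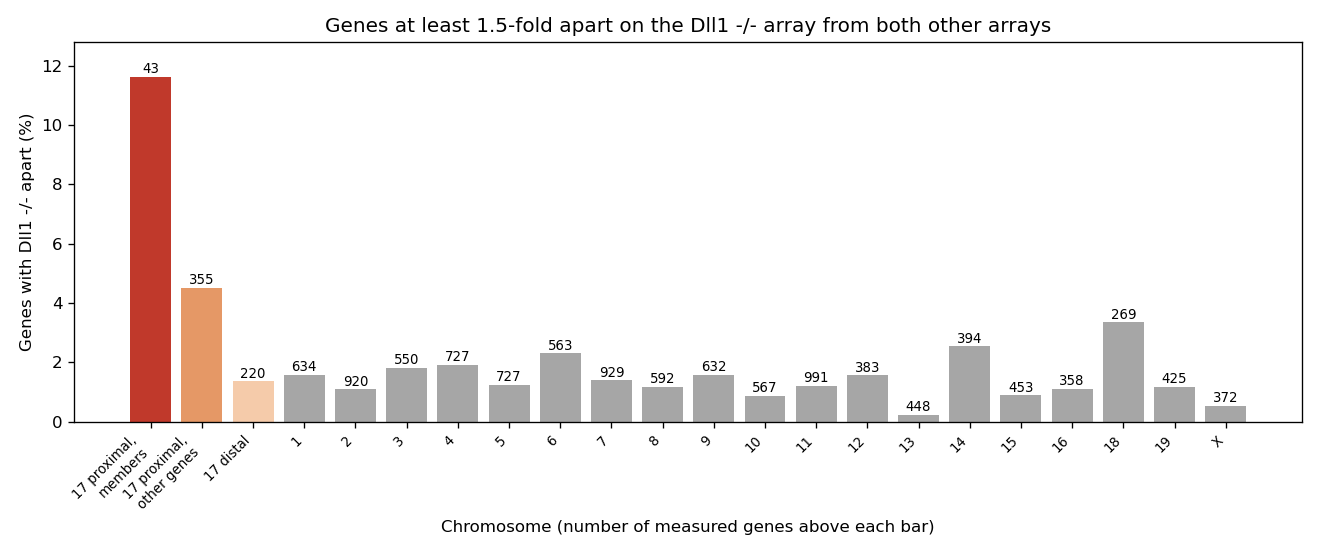
Share of measured genes (%) for which the Dll1-/- array was at least 1.5-fold above or below both other arrays, by chromosome, with the number of measured genes above each bar. The 43 genes of the set were chosen with such differences known. The other proximal genes of chromosome 17 stand at 4.51%, and the highest other chromosome is 18 at 3.35%.

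Along the chromosome, with set and other genes together, the Dll1-/- array stood apart for 3 of 54 genes before Dll1 (5.56%), 6 of 46 between Dll1 and Pdpk1 (13.0%), 6 of 89 between Pdpk1 and Itpr3 (6.74%), 5 of 48 between Itpr3 and Glp1r (10.4%) and 1 of 161 beyond Glp1r (0.62%). The Rbpj-/- array stood apart for 14.8%, 15.2%, 8.99%, 6.25% and 4.97% of the genes of the same stretches. The stretch from Pdpk1 to Itpr3 counts Dnase1l2, and that from Itpr3 to Glp1r counts Cpne5, Fgd2, Glo1 and Dnah8. These genes were chosen with such differences known, so the shares of the stretches are partly set by that choice and are not compared. In the last stretch, which holds the major histocompatibility complex and no gene of the set, the share for Dll1-/- cells was below that of all genes (1.54%).

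**Figure D4:**
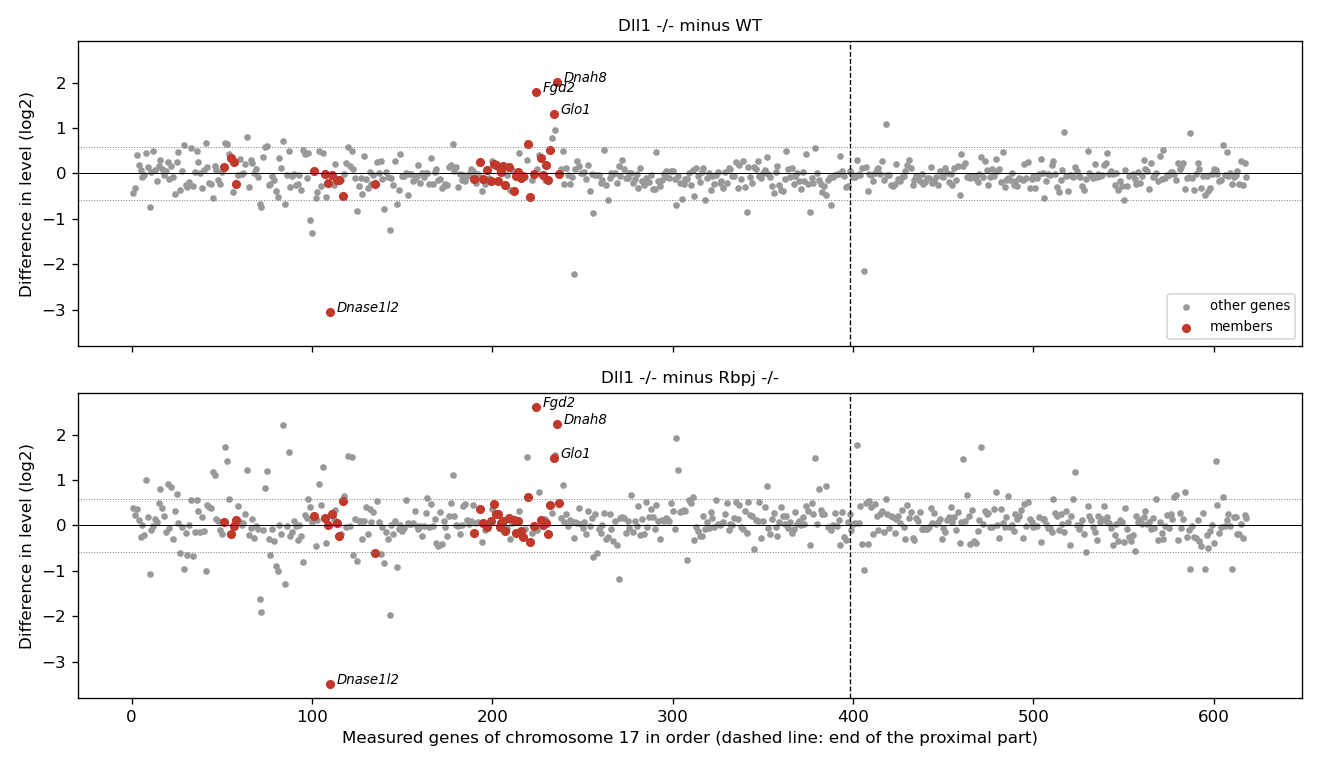
Difference in level (log2) of Dll1-/- minus wild type (top) and Dll1-/- minus Rbpj-/- (bottom) for measured genes of chromosome 17 in their order, with dotted lines at 1.5-fold and a dashed line at the end of the proximal part. The set's genes are in red. Dnase1l2, Fgd2, Glo1 and Dnah8 are named, and many grey genes of the proximal part lie past 1.5-fold in the lower panel.

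Of the 16 genes outside the set, 12 have names other than clone or predicted names, 4 higher and 8 lower in Dll1-/- cells. Gnptg, one of the lower genes, encodes a subunit of the enzyme that tags lysosomal proteins, and had levels of 1.57 in Dll1-/- cells, 3.53 in Rbpj-/- cells and 2.82 in wild-type cells. Its difference of -1.25 from wild type became -0.57 with its brightest probe alone, short of 1.5-fold. Its wild-type level lay between the knockouts, with the Rbpj-/- array also apart, on the opposite side. Clcn7, a lysosomal chloride transporter gene nearby, had -0.52, 0.32 and 0.25, lower in Dll1-/- cells alone. Rps2, a small ribosomal subunit protein gene with related copies that can share its probe signal, had 6.72, 7.52 and 7.54.

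Zinc finger genes made up 5 of the 12. Many other zinc finger genes of the region, such as Zfp51 and Zfp53, were not apart in Dll1-/- cells. Zfp945 was higher in Dll1-/- cells, at 0.46, with -1.75 in Rbpj-/- cells and -0.25 in wild-type cells. Zfp820 was higher too, at -0.78, with -1.99 and -1.38. The lower ones were Zfp52 at 0.64 (2.26 in Rbpj-/- and 1.32 in wild-type cells), Zfp948 at -0.70 (1.21 and 0.04) and Zfp40 at -2.03 (-0.74 and -1.35). For all 5 the wild-type level lay between those of the knockouts. After normexp with quantile normalization none of the 5 reached 1.5-fold against wild type. The differences were 0.47 for Zfp945, 0.34 for Zfp820, -0.54 for Zfp52, -0.53 for Zfp948 and -0.38 for Zfp40. These genes belong to a large family with similar sequences, so a probe may take signal from a relative.

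The other 4 were Vmn2r102, a vomeronasal receptor gene (-1.82 in Dll1-/-, -3.03 in Rbpj-/- and -2.61 in wild-type cells), Neurl1b, a ubiquitin ligase gene known for acting on Delta ligands (6.20, 5.09 and 5.55), Pglyrp2, a peptidoglycan-degrading amidase gene (-2.79, -2.10 and -1.92), and Tpsb2, a mast cell tryptase gene (-0.68, 0.23 and 0.00). Neurl1b and Vmn2r102 were higher in Dll1-/- cells, the others lower. Each of the 4 fell short of 1.5-fold against wild type under some alternative. After normexp with quantile normalization Vmn2r102 had 0.24 and Pglyrp2 -0.28. With no filter on dim probes Neurl1b had 0.21 and Tpsb2 -0.38.

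Between the knockouts, 29 of 398 proximal genes with a signal on all 3 arrays differed at least 2-fold, 4 of them in the set. Over all genes 465 of 11554 did. For 19 of the 29 (65.5%), or 4.77% of the 398, the wild-type signal lay in the middle. The middle ran from 25% to 75% of the way from one knockout to the other. Over all genes 243 of 11554 (2.10%) were 2-fold apart with wild type in the middle, or 52.3% of those 2-fold apart. Of the 4 genes in the set this held for Dnase1l2 alone, with wild type 29.4% of the way from Rbpj-/- to Dll1-/- cells on the linear scale. For Glo1 and Dnah8 the wild-type signal was 7.69% and 4.28% of the way and for Fgd2 14.9%, nearer to Rbpj-/- cells on that scale. In log2, wild type lay 0.45 from Rbpj-/- cells for Dnase1l2, in a gap of 3.49 between the knockouts. For Fgd2 it lay 0.81 from Rbpj-/- cells, in a gap of 2.61. Which genes count as in the middle therefore depends on the scale. The position of wild type was looked at after the values were seen.

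Probes named by mm9 coordinates, with no gene name in the files, gave a further view of the region. Of 206 such probes on chromosome 17 up to 40 Mb that were well above background on all arrays, 14 (6.80%) stood apart in Dll1-/- cells, 6 higher and 8 lower, against 2.70% of all 4518 coordinate-named probes. Farther along the chromosome the share was 8 of 91 (8.79%), so it was not limited to the proximal part. On other chromosomes it ran from 0.66% to 3.59%.

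Several of the 14 lay together. In the region chr17:22335458-22466521 (mm9, reverse strand per the probe name) all 3 probes were lower in Dll1-/- cells. The first had levels of -3.25 in Dll1-/- cells, -0.14 in Rbpj-/- cells and -0.42 in wild-type cells. The second had -1.48, 0.54 and -0.35, and the third -2.61, 0.75 and -0.14. Their differences from wild type were -2.83, -1.13 and -2.47, and the probes lie in rows 58, 226 and 325 of the array. Within that interval, chr17:22420025-22457650 on the same strand had 1 of 2 probes measured on all arrays apart, at -2.81, 0.03 and -1.05. The count leaves out a reverse-strand probe there that was well above background in Rbpj-/- and wild-type cells only. Its signals were 4.73 in Dll1-/- cells, 76.7 in Rbpj-/- cells and 51.6 in wild-type cells. Forward-strand probes of chr17:22420025-22457650 were not lower: 2 that were measured on all arrays differed from wild type by -0.18 and 0.02. Another interval inside it, chr17:22422837-22451777 on the reverse strand, held 3 measured probes that were not apart either, at 0.08, -0.04 and -0.44 against wild type.

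At lower coordinates, the region chr17:15100982-15115630 (reverse strand) had 2 of 3 probes higher in Dll1-/- cells. Their levels were -0.77 in Dll1-/- cells, -2.25 in Rbpj-/- cells and -1.82 in wild-type cells for one, and -1.16, -2.26 and -1.85 for the other. The differences from wild type were 1.05 and 0.69.

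**Figure D5:**
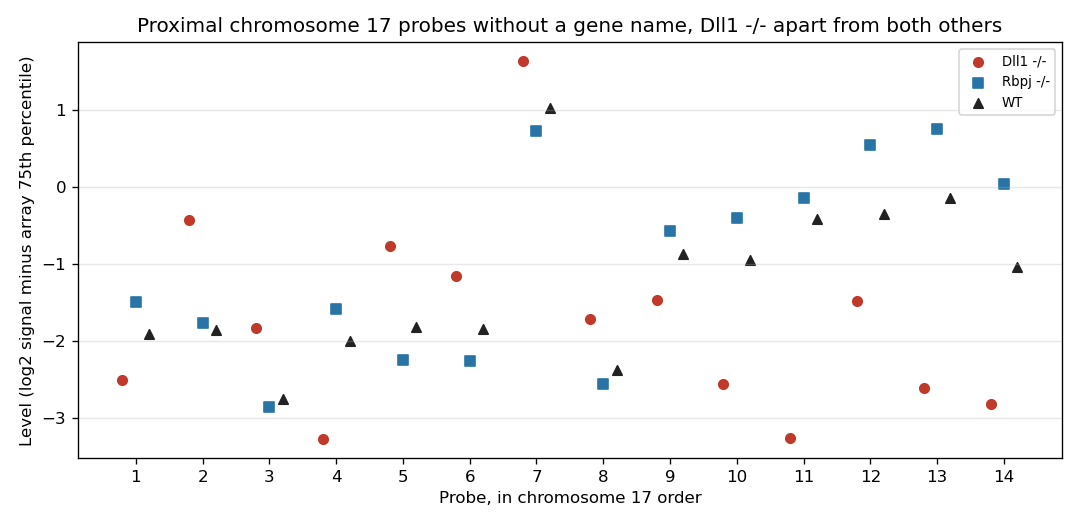
Levels (log2 signal minus the 75th percentile of the array) of the 14 coordinate-named probes of proximal chromosome 17 for which the Dll1-/- array stood apart, in chromosome order. Probes 11 to 14 cover the region with lower levels in Dll1-/- cells, and probes 5 and 6 the one with higher levels.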

How the data were processed

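Total RNA of 3 samples, 1 per group by the genotype in the labels, was hybridised to 3 arrays of 1 slide with 1 scan time, per the file headers, so slide and scan do not separate the groups. The authors deposited scanner files whose processed signal is a linear intensity after background subtraction and detrending in Agilent Feature Extraction. Its version was 10.7, per the submitters' processing notes, or in full 10.7.1.1, as the headers write it. The deposited series table holds log2 values. Set against the scanner files, 100% of its entries lay within 0.01 of log2 signal shifted by a constant for each array (-7.27, -7.14 and -7.47 for Dll1-/-, Rbpj-/- and wild type), so direction and scale were read from the values and nothing in the sources states the centring; its column medians were -3.40, -3.28 and -3.44.

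From the scanner files, control spots and outlier-flagged spots (163, 139 and 143) were left out, the 75th percentile (7.28, 7.14 and 7.47) was subtracted from log2 signals, and spots of a probe were averaged. No spot was saturated (0 on each array). Probes were named by accession through a RefSeq gene table of GRCm38.p6, which named 27509 probes (49.4%) for 20887 genes. Since the array design was built on mm9, the table gave names and order only. A probe is well above background where the flag holds for at least 50% of its spots, and a gene is the mean of those of its probes that passed on 1 or more arrays (13162 genes), also where they disagree. A bound, written as at least N-fold, sets the bright signal against the higher of the dim probe's own signal and the lowest signal well above background on the dim array. Promoter entries were matched by symbol for 53 of the 58 genes.

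Differences and counts were made with Python 3.11.15, numpy 2.4.6 and pandas 2.3.3, and normexp of median spot and background signals (offset 50) with quantile normalization in R 4.3.3 with limma 3.58.1. The steps were tested on simulated data. Named are all 58 genes, Dll1, Rbpj, and up to 12 other proximal genes with the largest difference of Dll1-/- cells from both arrays, without clone or predicted names; other genes were chosen after their values were seen. One marker is not reported here. The genes and lists were chosen with earlier results of these data known. With 1 array for each group, the number of arrays limits precision. Alternatives were the background correction, 3 scalings or value sources, 2 filters on dim probes, the rows of the array used and the brightest probe.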

Additional observations from a re-analysis of the deposited data

How the results depend on the processing

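The 5 genes of the set for which the Dll1-/- array stood apart became 4 under 6 of the 8 alternatives, where Cpne5 was lost, and were 5 with array-median scaling and with the authors' deposited table. Over the alternatives the difference from wild type ran from -3.21 to -1.82 for Dnase1l2, 1.06 to 1.79 for Fgd2, 1.14 to 1.30 for Glo1 and 1.70 to 2.02 for Dnah8, and from Rbpj-/- cells from -3.49 to -2.23, 1.43 to 3.02, 1.31 to 1.91 and 1.76 to 2.65. The count for Rbpj-/- cells against wild type was 0 with normexp, 4 with array-median scaling and 24 with spike-in scaling, against 2. For Dll1-/- against Rbpj-/- cells it was 15 with spike-in scaling, against 6. Spike-in scaling put the median of all genes at -0.19 (Dll1-/- minus wild type), -0.66 (Rbpj-/- minus wild type) and 0.45 (Dll1-/- minus Rbpj-/-), and median scaling at -0.07, -0.24 and 0.15. Outside the set, an alternative chosen after seeing the data gave 6 proximal genes apart with normexp (1.69%, against 0.49% on other chromosomes), 9 with spike-in scaling (2.54% against 1.06%) and 9 of 211 with rows 193 to 384 alone (4.27% against 1.27%), against 16. Of 306 single-gene values under alternatives 303 kept their sign. Zfp820 reversed, to -0.43 against wild type with no filter on dim probes, and Btbd9, which was not apart, had -0.13 with those rows alone and -0.10 with the brightest probe, which leave out its higher probe; the cause for Zfp820 was not tested. No paired analysis was possible because each group has 1 array. Signals near background, as for Tsc2, Glp1r and Pi16, limit what low levels can show.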
